A study of Mus musculus with 39 samples.

Results

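Gata4 and Gata6 were examined through the histone marks listed around them in naive extra-embryonic endoderm (nEnd), a mouse stem cell culture that models the early primitive endoderm (PrE). A peak was taken when any of its bases lay in the body of either gene or within 100 kb on either side, on the GRCm38 (mm10) build. This gave 222 of the 432096 peaks in 36 lists, 151 in the 273 kb window of Gata4 (ENSMUSG00000021944.15, chromosome 14, minus strand, gene at 63198922-63271692) and 71 in the 234 kb window of Gata6 (ENSMUSG00000005836.10, chromosome 18, plus strand, gene at 11052064-11085635). Each list came from a CUT&Tag library, an assay in which an antibody brings a transposase to a histone mark so that the DNA beside it is cut and sequenced. The 4 marks were H3K4me1, H3K27ac, H3K27me3 and H3K9me3. Each mark was profiled in 3 populations of 1 untreated cell line carrying an OCT4-mCherry protein reporter, with 3 libraries per population and mark. The populations were sorted as positive for OCT4-mCherry alone (Oct4+), for OCT4-mCherry and PDGFRA (DP) or for PDGFRA alone (Pdgfra+). DP and Pdgfra+ are the endodermal cells of the culture and Oct4+ the cells that have left the endoderm state. All populations came from nEnd grown in RACL medium, which contains LIF, CHIR99021 and Activin A, and 3 IgG samples were not used here.

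GATA6 and GATA4 are zinc finger transcription factors that bind DNA at GATA motifs. GATA6 is among the earliest factors of the PrE, is induced by FGF signalling through ERK and is antagonised by the epiblast factor NANOG, and GATA4 follows it in the cells committed to PrE. H3K27ac is found at active promoters and enhancers, H3K4me1 at enhancers whether or not they are active, H3K27me3 at chromatin held by Polycomb and H3K9me3 at heterochromatin.

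Only peak lists were analysed, so sequencing depth is unknown, and where no peak was listed the mark may have been present below the caller's threshold. The lists differed in length from 1074 peaks (H3K4me1, Pdgfra+ replicate 2) to 65131 peaks (H3K27ac, Oct4+ replicate 2). The H3K27ac lists of Oct4+ held 8574 to 65131 peaks, those of DP 3079 to 12244 and those of Pdgfra+ 4792 to 7128. The sort was checked by the H3K27ac peaks at the starts of marker genes. Of 8 pluripotency genes, 7, 6 and 5 had an H3K27ac peak at their start in the 3 Oct4+ libraries, 3, 1 and 1 in DP, and 1, 1 and 2 in Pdgfra+. Of 10 endoderm markers, 3, 6 and 0 had one in Oct4+, 8, 4 and 7 in DP, and 6, 6 and 6 in Pdgfra+. Of 10 fibroblast markers, which would mark feeder cells, at most 2 had one in any library, in Oct4+ replicate 2. The share of all coding genes with an H3K27ac start peak was 35.3, 44.3 and 17.0% in Oct4+, 33.2, 10.7 and 34.9% in DP, and 15.9, 22.7 and 18.5% in Pdgfra+. Against it, the pluripotency genes were above in each Oct4+ library, at 62.5% or more, and by less in DP replicates 1 and 2 and Pdgfra+ replicate 3 (37.5, 12.5 and 25.0%). The endoderm markers were above in each DP and Pdgfra+ library and in Oct4+ replicate 2. Pou5f1, which encodes OCT4, had one in 3 of 3 Oct4+, 1 of 3 DP and 1 of 3 Pdgfra+ libraries.

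At Gata6, H3K27me3 lay across the start of the main coding transcript in every Oct4+ library and in no DP or Pdgfra+ library. At the annotated gene start it was listed in 2 of 3 Oct4+ libraries and in none of the others. Distances are given from the start of the main transcript, the one with the longest coding sequence. For Gata6 this start lies 0.406 kb inside the annotated gene start. In Oct4+ replicate 1 a single peak ran from 1.84 kb upstream to 2.05 kb downstream of the start, with a total signal (fragment coverage summed over the bases of the peak) of 11252. In Oct4+ replicate 2, one peak ran from 7.51 to 2.68 kb upstream and another from 0.282 kb upstream to 3.84 kb downstream, with a summed signal of 45629. Oct4+ replicate 3 had the widest peak, from 8.71 kb upstream to 4.41 kb downstream, with a signal of 140640. The only other H3K27me3 peak of the window lay 47.3 to 53.9 kb downstream of the start, beyond the gene, in DP replicate 2.

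The covered share, the percentage of the window's bases under listed peaks, was 1.67, 3.83 and 5.62% for H3K27me3 at Gata6 in Oct4+ replicates 1, 2 and 3. It was 0, 2.82 and 0% in DP and 0% in each Pdgfra+ library. The highest DP value therefore lay between the lowest and the middle Oct4+ values, and the Pdgfra+ values lay below all of Oct4+. The mean of the 6 DP and Pdgfra+ libraries differed from that of Oct4+ by -3.24 percentage points (exact two-sided permutation test over 84 assignments of the libraries, p = 0.0238), where 0.0119 is the smallest p this design can give. The difference did not pass the correction over the 14672 coding genes tested (Benjamini-Hochberg adjusted p = 0.870, and 0.142 to 1.0 over the alternatives). Of those genes 0.913% were lower at an unadjusted p below 0.05, 134 in number, 0.627% were higher, and 0 passed at an adjusted p below 0.05 with this test or with limma. Here and below, the mark was measured in sorted populations, so fewer cells with the mark and less mark per cell cannot be told apart. The p-values measure the spread between these libraries. The H3K27me3 lists held 1629, 2948 and 5785 peaks in Oct4+, 3798, 8672 and 6418 in DP, and 1143, 2841 and 6151 in Pdgfra+, so DP had no list as short as the shortest of the others. The lowest total signal listed was 52608, 16476 and 13383 in DP and 4589, 7977 and 25863 in Pdgfra+. A peak like that of Oct4+ replicate 1, at 11252, could thus not be listed in any DP library or in Pdgfra+ replicate 3. With the 1143 peaks of highest signal taken from every list, the 3 Oct4+ libraries covered 1.67, 1.77 and 5.62% and the 6 others 0% (exact p = 0.0119, adjusted p = 0.363), beside 3.79% of 8101 genes that were lower at an unadjusted p below 0.05.

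**Figure D1:**
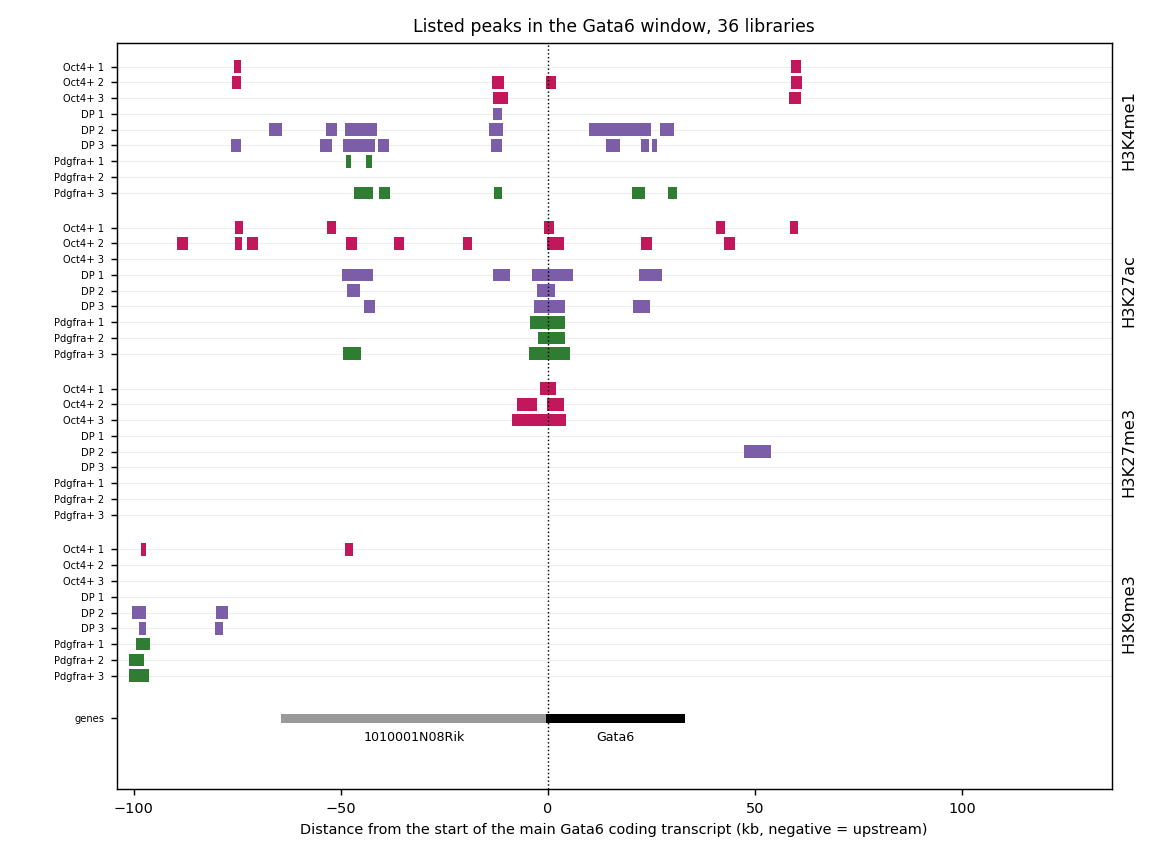
Listed peaks of the 36 libraries (rows, grouped by mark and coloured by population) against distance in kb from the start of the main Gata6 coding transcript (dotted line), with the genes of the window below. H3K27me3 covers the start in the 3 Oct4+ libraries alone, and H3K27ac covers it in all 6 DP and Pdgfra+ libraries and in 2 of 3 Oct4+ libraries.

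H3K27ac at the Gata6 start was listed in 6 of 6 DP and Pdgfra+ libraries and in Oct4+ replicates 1 and 2, as at 1.64% of coding genes. The total signal there was 62353, 24692 and 64357 in DP replicates 1, 2 and 3 and 58416, 32332 and 71798 in Pdgfra+. In Oct4+ it was 7434 in replicate 1 and 12499 in replicate 2, with no peak in replicate 3. The lowest DP or Pdgfra+ value was thus above both Oct4+ values, although signal was not scaled to depth. The lowest total signal listed anywhere was 13683, 13728 and 14586 in the DP lists, 27115, 8736 and 28044 in Pdgfra+ and 5460 to 6021 in Oct4+. A value as low as 12499 could therefore be listed only in Pdgfra+ replicate 2, and one of 7434 in no DP or Pdgfra+ library. Because the lists differ in how low a value they can hold, the order of these values cannot be read as a difference. The part of the lists in that order was not tested. Within its own list, a rank that depends on how far down each list runs, the peak stood at the 80.5th to 97.3th percentile of total signal in the 6 DP and Pdgfra+ libraries, and at the 38.5th and 83.4th in Oct4+, whose lists of 38619 and 65131 peaks were longer than those of the 6 others. When the 3079 peaks of highest signal were taken from every H3K27ac list, the start was marked in 0 of 3 Oct4+, 3 of 3 DP and 3 of 3 Pdgfra+ libraries, a pattern shared by 331 of 21911 coding genes (1.51%). H3K27me3 at the start, with 1143 peaks from every list, kept 3 of 3 Oct4+ and 0 of 6 other libraries, as at 0.288% of coding genes. The peaks also covered the start of 1010001N08Rik, an antisense transcript that begins inside Gata6 and runs upstream, so CUT&Tag does not assign them to either gene.

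A further H3K27ac region lay 41.7 to 49.7 kb upstream of Gata6, in an intron of 1010001N08Rik. It had a peak in 3 of 3 DP libraries (total signal 51479, 18032 and 17101), in Pdgfra+ replicate 3 (29393) and in Oct4+ replicate 2 (6839). The DP replicate 2 peak, 45.3 to 48.6 kb upstream, and that of replicate 3, at 41.7 to 44.5 kb, did not overlap. They were joined by the wider peak of DP replicate 1, so no single stretch was listed in all 3 DP libraries. H3K4me1 covered the same stretch in DP replicates 2 and 3, from 49.0 to 41.2 and from 49.4 to 41.8 kb upstream, and in Pdgfra+ replicates 1 and 3, and in 0 of 3 Oct4+ libraries, a region described after its values were seen. A narrower H3K4me1 region 9.55 to 14.3 kb upstream was listed in 3 of 3 DP libraries, 2 of 3 Oct4+ and 1 of 3 Pdgfra+. In DP its total signal was 11018, 29649 and 12540. The reverse pattern was found 58.1 to 61.4 kb downstream of the start, outside any annotated gene, where all 3 Oct4+ libraries had an H3K4me1 peak (total signal 9426, 14109 and 10399) and the other 6 had none. At the start itself H3K4me1 was listed in Oct4+ replicate 2 alone, and 4.22% of coding genes had a peak in 1 of 3 Oct4+ libraries and in none of the other 6.

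Across the Gata6 window the populations overlapped in H3K4me1 and H3K27ac. H3K4me1 covered 1.81, 4.37 and 2.81% in Oct4+, 1.02, 15.2 and 10.4% in DP and 1.28, 0 and 6.18% in Pdgfra+, a difference of 2.68 percentage points between the 6 endoderm libraries and Oct4+ (exact permutation p = 0.524, adjusted p = 0.969). The low values in DP replicate 1 and Pdgfra+ replicates 1 and 2 came from lists of 4371, 1723 and 1074 peaks. H3K27ac covered 4.60, 9.93 and 0% in Oct4+, 11.6, 3.21 and 6.21% in DP and 3.60, 2.77 and 6.15% in Pdgfra+, a difference of 0.745 points (exact permutation p = 0.845, adjusted p = 0.873). This H3K27ac difference was -1.68 points without Oct4+ replicate 3 and -0.455 without DP replicate 1. With an equal number of peaks per list it was 4.08 points (exact p = 0.0119, adjusted p = 0.0902, and 0.0680 to 0.982 over the alternatives), since the Oct4+ libraries then covered 0% each and the others 2.77 to 7.35%. At that setting 12.9% of 14179 genes were higher at an unadjusted p below 0.05, against 0.0966% of 20704 genes with all peaks. At an adjusted p below 0.05, 0 genes passed the exact test with all peaks, and limma called 9 genes higher (0.0435%) and 2372 lower (11.5%), neither Gata4 nor Gata6 among them.

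At Gata4, H3K27me3 covered the main start in every Oct4+ library, as it did at Gata6. The annotated Gata4 gene begins at an alternative start, 26.4 kb upstream of that of the transcript with the longest coding sequence. In Oct4+ replicates 1 and 2, one H3K27me3 peak ran across the main start, from 2.89 kb upstream to 0.937 kb downstream and from 2.27 kb upstream to 1.32 kb downstream. Each was joined by another upstream, at 4.66 to 7.92 kb and at 4.38 to 8.59 kb. Oct4+ replicate 3 had 1 domain from 9.32 kb upstream to 6.94 kb downstream, and a further peak 22.1 to 26.3 kb upstream that ended just inside the alternative start. The summed signal of the region at the main start was 25357, 38934 and 165011 in Oct4+ replicates 1, 2 and 3, and no DP or Pdgfra+ library had a peak there. The lowest total signal listed in DP was 52608, 16476 and 13383. Single peaks like those of Oct4+ replicate 1, at 14340 and 11017, could thus not be listed in DP replicates 1 or 2. Those of Oct4+ replicate 2, at 21328 and 17606, could not be listed in DP replicate 1.

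DP cells had H3K27me3 near Gata4 at a different place. A region 35.4 to 52.9 kb upstream of the main start, between Gata4 and the long noncoding RNA gene Gm49390, had a peak in 3 of 3 DP libraries and in 0 of 3 Oct4+ and 0 of 3 Pdgfra+ libraries. The peaks ran from 50.9 to 35.4 kb upstream in DP replicate 1, in 2 blocks from 52.9 to 35.4 kb in replicate 2 and from 43.7 to 35.6 kb in replicate 3, with summed signals of 105574, 87134 and 42500. All 3 thus ended at nearly the same point on the side of the gene. Inside this domain lay an H3K4me1 region, 37.5 to 39.9 kb upstream, listed in DP replicates 2 and 3 (total signal 17538 and 12253), in 3 of 3 Pdgfra+ libraries (4757, 4498 and 19526) and in 0 of 3 Oct4+. It was the only Gata4 H3K4me1 region listed in all 3 Pdgfra+ libraries, and in DP it lay under H3K27me3 while in Pdgfra+ no H3K27me3 was listed. DP replicates 2 and 3 also had H3K27me3 at the far end of the window, beyond Ctsb, from 143 and 142 to 151 kb downstream, and DP replicate 2 had a peak over the start of Gm49390, 62.7 to 75.5 kb upstream.

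Because Oct4+ and DP both had H3K27me3 in the Gata4 window at different places, the covered share did not separate them. It was 2.6, 2.86 and 7.51% in Oct4+, 5.66, 12.0 and 6.13% in DP and 0% in each Pdgfra+ library. The 6 DP and Pdgfra+ libraries differed from Oct4+ by -0.356 points (exact permutation p = 0.917, adjusted p = 1.0). Pdgfra+ was below DP by -7.93 points, with every DP library above every Pdgfra+ library. The exact permutation p was 0.10, the smallest that this test can give for 3 against 3 libraries (adjusted p = 0.652, and 0.104 to 0.972 over the alternatives). With limma the difference was -4.42 on the log2(covered bp + 1000) scale (SE 0.94, adjusted p = 0.104), which did not pass either. The Pdgfra+ lists were not all short: replicate 3 held 6151 peaks, more than each Oct4+ list, and had none in either window. Its lowest listed total signal was 25863, however. The Gata4 peaks of Oct4+ replicates 1 and 2 were at 11017 to 21328, and peaks of that size could not be listed there.

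**Figure D2:**
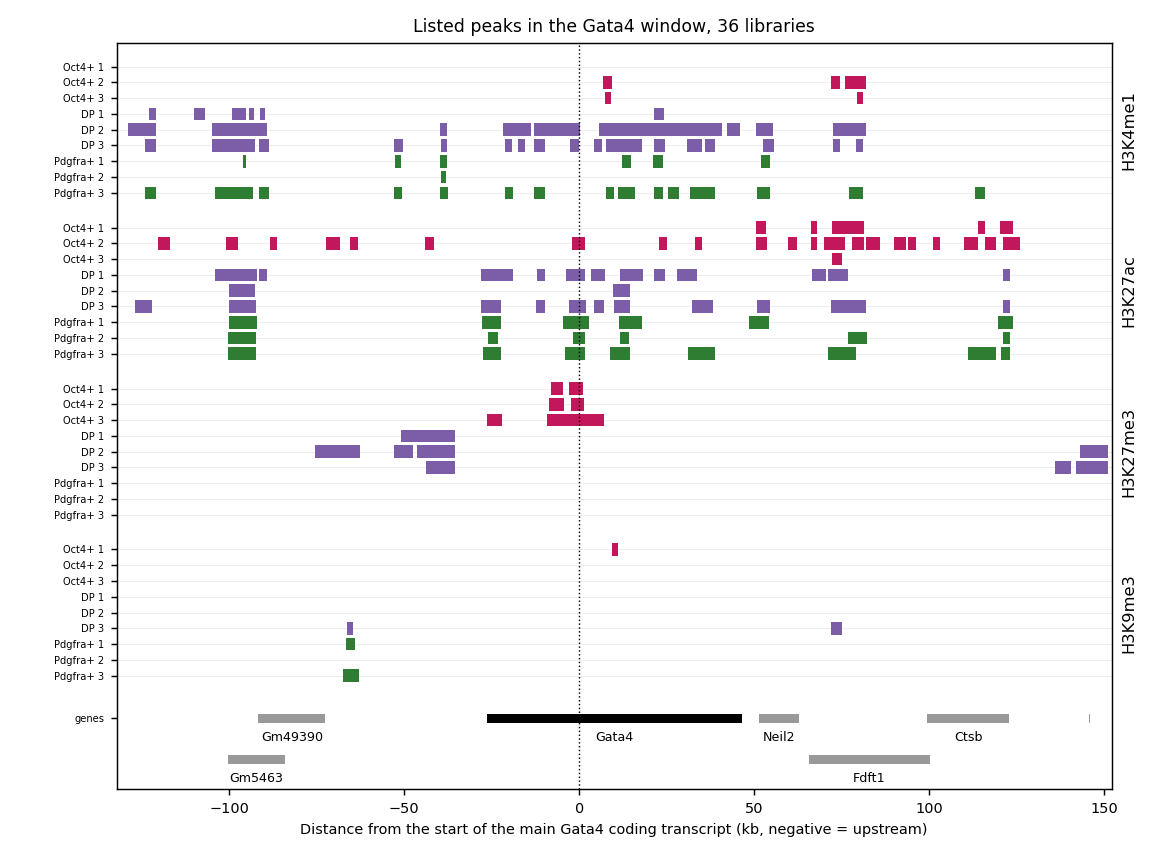
Listed peaks of the 36 libraries (rows, grouped by mark and coloured by population) against distance in kb from the start of the main Gata4 coding transcript (dotted line, negative values upstream), with the genes of the window below. H3K27me3 lies at the start in the 3 Oct4+ libraries and between 35.4 and 52.9 kb upstream in the 3 DP libraries, and H3K27ac 92.1 to 104 kb upstream is listed in all 6 DP and Pdgfra+ libraries.

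The strongest H3K27ac of the Gata4 window lay far from the gene. A region 92.1 to 104 kb upstream of the main start, over an exon of the noncoding gene Gm5463, had a peak in 6 of 6 DP and Pdgfra+ libraries and in Oct4+ replicate 2. The total signal was 115781, 46599 and 119404 in DP, 108870, 63821 and 134611 in Pdgfra+ and 9080 in the Oct4+ library. In the DP and Pdgfra+ libraries the peak stood at the 98.0th to 99.8th percentile of its own list, and in Oct4+ replicate 2, the longest list, at the 68.4th. H3K4me1 covered the same place, from 88.6 to 105 kb upstream, in 3 of 3 DP libraries (summed signal 27324, 137632 and 66837), in Pdgfra+ replicates 1 and 3 (4818 and 71417) and in 0 of 3 Oct4+ libraries. Pdgfra+ replicate 2, the H3K4me1 list of 1074 peaks, had none.

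H3K27ac at the main Gata4 start itself was listed in DP replicates 1 and 3 (total signal 38095 and 37029), in 3 of 3 Pdgfra+ libraries (43392, 14663 and 44409) and in Oct4+ replicate 2 (10658). DP replicate 2, which lacked a peak, was the shortest H3K27ac list, with 3079 peaks. This pattern across libraries was shared by 73 of 21911 coding genes at their main starts (0.333%). With equal numbers of peaks, H3K27ac lay there in 0 of 3 Oct4+, 2 of 3 DP and 3 of 3 Pdgfra+ libraries, as at 0.557% of coding genes, and H3K27me3 in 2 of 3 Oct4+ and 0 of 6 others, as at 0.548%. A region spanning the alternative start, 18.8 to 28.1 kb upstream, had a peak in DP replicates 1 and 3 (60836 and 43895), in 3 of 3 Pdgfra+ libraries (31256, 10223 and 41022) and in 0 of 3 Oct4+. An intronic region 8.70 to 18.3 kb downstream of the main start had a peak in 3 of 3 DP (33788, 14525 and 26875) and 3 of 3 Pdgfra+ libraries (48374, 11929 and 32405) and in 0 of 3 Oct4+ libraries. It was the only H3K27ac region of either window with peaks in all 6 endoderm libraries and in no Oct4+ library. Of the neighbouring genes, H3K27ac was listed at the Ctsb start in 7 of 9 libraries, 2 of them Oct4+. It was listed inside Fdft1, in a merged region 66.1 to 86.0 kb downstream of the main Gata4 start, in 7 of 9 libraries, 3 of them Oct4+.

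The bases under these features are shown for 3 places on chromosome 14 of GRCm38, all read on the minus strand, as Gata4 is transcribed. They are the stretch just upstream of the main start, where H3K27me3 in Oct4+ and H3K27ac in Pdgfra+ were listed, the maximum of the intronic H3K27ac region (Pdgfra+ replicate 1), and the maximum of H3K4me1 (Pdgfra+ replicate 3) in the distal region. Capitals mark matches on either strand. The motif of GATA factors was searched as GATAAG, that of SOX factors as ACAATGG, that of POU factors as ATGCAAAT and that of STAT factors as TTCCNGGAA, and GATAAG alone had a match in these windows.
Upstream of the main start, chr14:63245272-63245521: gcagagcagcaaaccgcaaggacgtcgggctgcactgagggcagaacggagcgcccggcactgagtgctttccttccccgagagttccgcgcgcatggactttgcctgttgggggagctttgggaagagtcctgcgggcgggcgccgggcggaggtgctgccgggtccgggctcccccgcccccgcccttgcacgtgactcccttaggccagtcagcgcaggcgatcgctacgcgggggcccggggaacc
Intronic H3K27ac maximum, chr14:63232631-63232830: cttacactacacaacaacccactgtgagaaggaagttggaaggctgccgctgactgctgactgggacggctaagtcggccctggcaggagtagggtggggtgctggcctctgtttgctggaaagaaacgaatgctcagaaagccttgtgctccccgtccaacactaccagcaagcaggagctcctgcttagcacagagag
Distal H3K4me1 maximum, chr14:63340693-63340892: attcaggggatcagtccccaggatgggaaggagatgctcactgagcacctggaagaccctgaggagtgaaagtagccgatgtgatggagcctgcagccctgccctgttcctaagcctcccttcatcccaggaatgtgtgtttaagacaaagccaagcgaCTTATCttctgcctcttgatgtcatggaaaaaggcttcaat

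None of the 3 windows lay in an annotated exon. The 250 bases upstream of the main start were 70.8% G or C and held none of the 4 motifs, and GATAAG was found in the same stretch of 6.14% of 21911 coding genes. The distal H3K4me1 window held 1 GATAAG, as its reverse complement, and the intronic window held none of the 4. Among 200-base windows at the maximum of every peak of the same list, GATAAG was found in 18.9% of 10620 H3K4me1 windows in Pdgfra+ replicate 3 and in 7.91% of 4792 H3K27ac windows in Pdgfra+ replicate 1. The matches describe these letters alone and no binding was measured.

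H3K4me1 over Gata4 spread across the gene body in part of the endoderm libraries. A region 4.18 to 40.7 kb downstream of the main start, within the gene, was listed in 3 of 3 DP, 2 of 3 Pdgfra+ and 2 of 3 Oct4+ libraries. The summed signal was 10498, 223779 and 97245 in DP, where replicate 2 had a domain from 5.66 to 40.7 kb, and 14495 and 94262 in Pdgfra+ replicates 1 and 3. In Oct4+ replicates 2 and 3 it was 8921 and 7521, from peaks 6.93 to 9.32 and 7.28 to 9.09 kb downstream. The DP replicate 1 peak, at 21.4 to 24.1 kb, did not overlap them. These Oct4+ peaks ranked low in their lists, at the 12.5th and 7.71th percentiles, whereas the DP peaks ranked at the 77.2th, 99.9th and 99.3th. H3K4me1 at the main start itself was listed in DP replicates 2 and 3 and in no other library, as at 0.926% of coding genes. A last region, 121 to 129 kb upstream, had a peak in 3 of 3 DP libraries, in Pdgfra+ replicate 3 and in 0 of 3 Oct4+ libraries. Only the DP replicate 2 peak reached an exon of Blk, and the other peaks ended 123 to 124 kb upstream, outside any annotated gene.

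The H3K4me1 covered share of the Gata4 window was 0, 4.13 and 1.27% in Oct4+ (1.80 ± 2.12, SD, n = 3), 5.43, 35.7 and 23.0% in DP (21.4 ± 15.2) and 4.64, 0.474 and 21% in Pdgfra+ (8.72 ± 10.9). Every DP library lay above every Oct4+ library, and Pdgfra+ overlapped with both. The difference of the 6 endoderm libraries from Oct4+ was 13.3 points (exact permutation p = 0.167, adjusted p = 0.890). Divided by the share of the genome that each list covers, the same window was at 0, 2.08 and 1.55 times the genome in Oct4+, 14.4, 15.8 and 20.4 times in DP and 36.3, 6.63 and 18.7 times in Pdgfra+, with no overlap between Oct4+ and the others (exact p = 0.0238, adjusted p = 0.195, and 0.105 to 1.0 over the alternatives). At that scale 2.57% of 17183 genes were higher at an unadjusted p below 0.05, and with all peaks unscaled 0.291% were higher and 6.88% lower. At an adjusted p below 0.05, 0 genes passed by this test and 0 by limma. Compared with the windows of all 21911 coding genes in the same library, where windows at 0% take the middle of their tied ranks, Gata4 stood at the 30.7th, 63.5th and 62.4th percentiles of H3K4me1 covered share in Oct4+, at the 97.6th, 99.5th and 99.9th in DP and at the 99.9th, 86.6th and 99.8th in Pdgfra+. Gata6 stood at the 64.7th to 84.4th for Oct4+, at the 72.5th to 94.5th for DP and at the 42.7th to 93.0th for Pdgfra+, so that its populations overlapped.

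**Figure D3:**
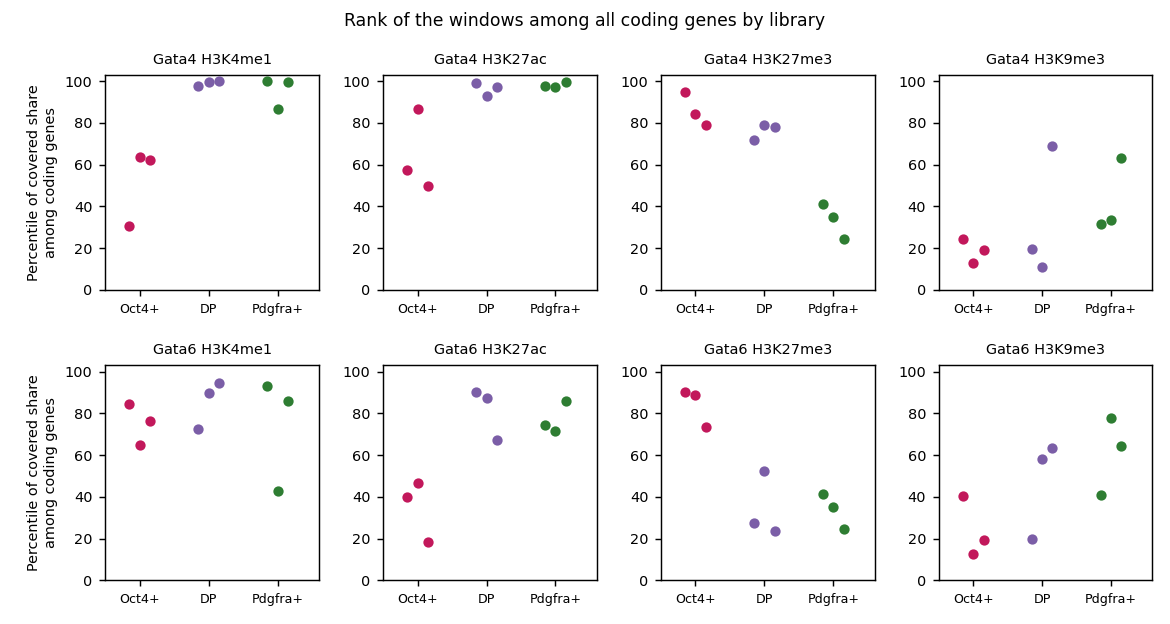
Percentile of the covered share of each window among the windows of all coding genes in the same library, by mark and population, with 1 point per library (replicates 1 to 3 from left to right). Gata4 lies at 86.6 or above for H3K4me1 in all 6 DP and Pdgfra+ libraries and at 63.5 or below in Oct4+, while H3K27me3 percentiles are highest in Oct4+ for both genes.

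H3K27ac over the Gata4 window covered 7.34, 23.9 and 1.02% in Oct4+ (10.7 ± 11.8, SD, n = 3), 23.0, 4.48 and 20.2% in DP and 13.7, 9.19 and 19.2% in Pdgfra+. Oct4+ spanned the whole range of the other populations, and the difference was 4.21 points (exact permutation p = 0.512, adjusted p = 0.581). It was -0.656 points without Oct4+ replicate 3. In Oct4+ replicate 1 every H3K27ac peak lay 50.5 to 124 kb downstream of the main start, over Neil2, Fdft1 and Ctsb, and the 1 peak of replicate 3 lay at Fdft1, 72.1 to 74.9 kb downstream. With a flank of 20 kb the difference was 13.6 points (exact p = 0.107). With an equal number of peaks the window was covered by 3.36, 0 and 0% in Oct4+ and by 4.48 to 12.1% in the 6 others, a difference of 7.80 points (exact p = 0.0119, adjusted p = 0.0902, and 0.0565 to 0.938 over the alternatives). The H3K27ac share of Gata4 stood at the 49.7th to 86.7th percentile of coding genes for the Oct4+ libraries, at the 92.8th to 98.9th for DP and at the 97.0th to 99.5th for Pdgfra+. For Gata6 these were the 18.4th to 46.5th in Oct4+, the 67.4th, 87.3th and 90th in DP, and the 71.5th to 85.8th in Pdgfra+. For both genes the Oct4+ percentiles lay below those of every other library.

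**Figure D4:**
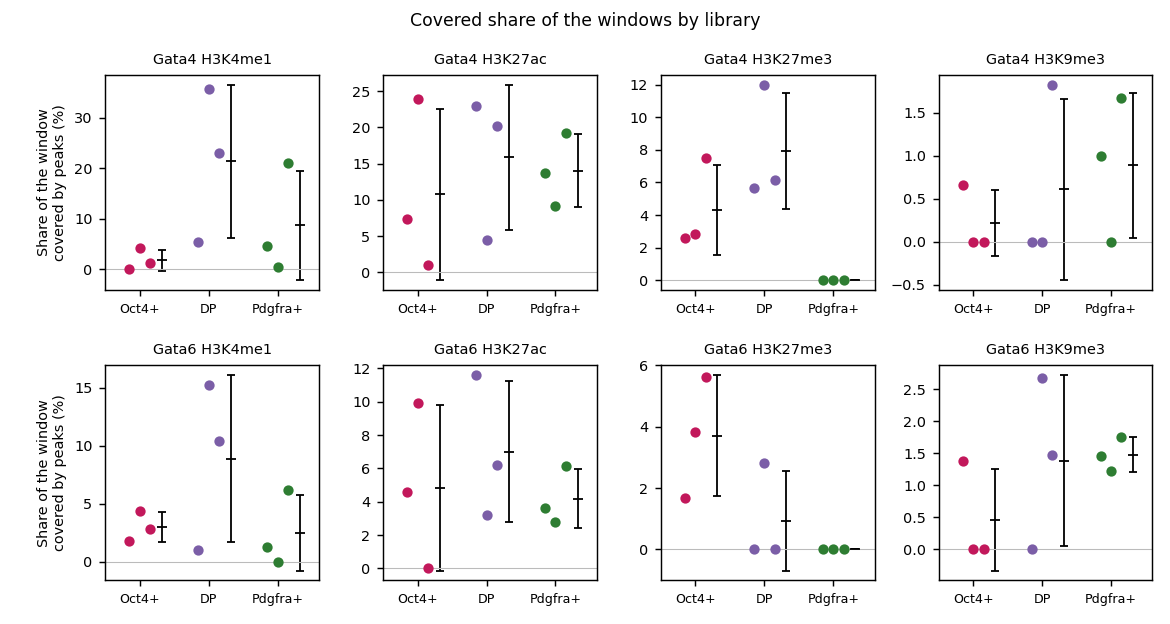
Share of the Gata4 and Gata6 windows covered by listed peaks (%), by mark and population, with 1 point per library and, beside the points, the mean with the SD over 3 libraries. H3K27me3 is at 0% in all Pdgfra+ libraries for both genes, and the DP libraries reach 35.7% for H3K4me1 at Gata4.

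H3K9me3 was rare at both genes. The 9 H3K9me3 libraries had 5 peaks in the Gata4 window and 9 in that of Gata6, and the covered share stayed at or below 1.83% and 2.68%. Gata4 had no H3K9me3 peak in 5 of 9 libraries, and neither gene had one at its start in any library, as was so for 95.1% of coding genes. The 1 region of Gata6 listed in all 3 libraries of a population lay 96.1 to 101 kb upstream, at the edge of the window, in 3 of 3 Pdgfra+, 2 of 3 DP and 1 of 3 Oct4+ libraries. The difference between the endoderm libraries and Oct4+ was 0.530 points at Gata4 (exact permutation p = 0.405, adjusted p = 0.706) and 0.970 at Gata6 (exact p = 0.202, adjusted p = 0.533), and 4.10% of the 19919 genes tested were higher and 13.0% lower at an unadjusted p below 0.05. At an adjusted p below 0.05 the exact test called 0 genes, and limma 1.60% higher and 3.47% lower.

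Merging the peaks of each mark gave 72 regions in both windows, of which 31 had a peak in 1 library only. In 18 regions, 12 at Gata4 and 6 at Gata6, all 3 libraries of at least 1 population had a peak. Of all 173924 such merged regions in the genome, 18.1% met that rule. Of the 18, 9 had no peak in any library of at least 1 other population, 7 at Gata4 and 2 at Gata6. These were 3 of 12 H3K4me1 regions at Gata4 and 1 of 11 at Gata6, beside 12.5% of the 26496 H3K4me1 regions in the genome. For H3K27ac they were 2 of 23 at Gata4 and 0 of 12 at Gata6, beside 4.49% of 78963. For H3K27me3 they were 2 of 6 at Gata4 and 1 of 2 at Gata6, beside 11.0% of 10684. These are counts over few regions and were not tested.

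**Figure D5:**
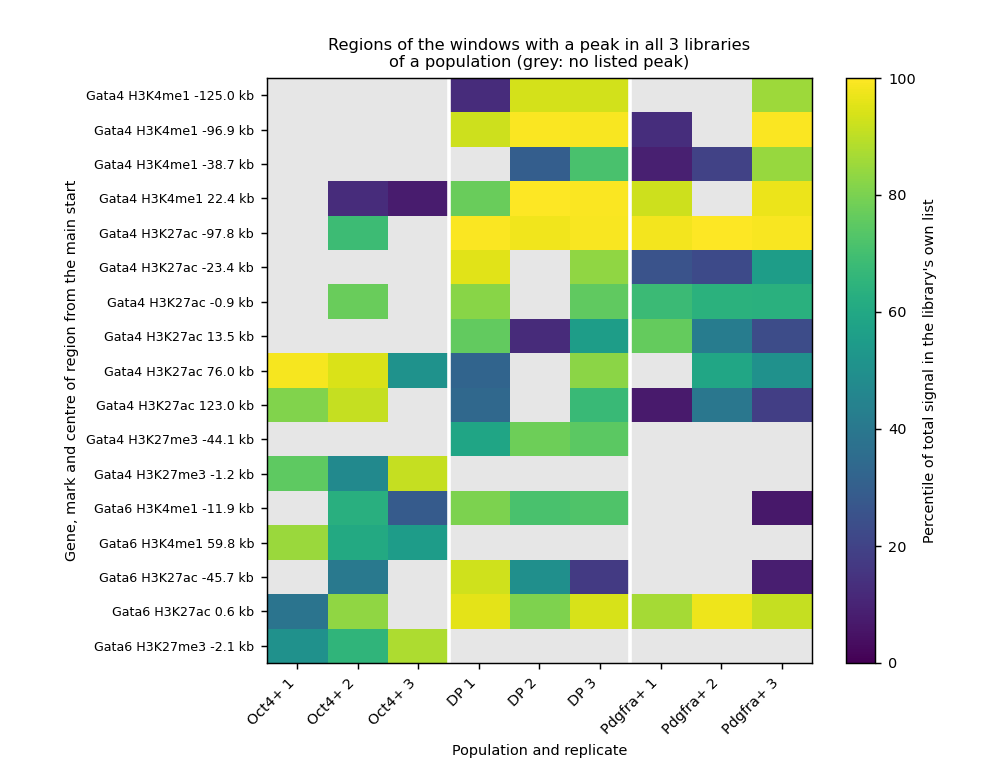
Regions of the Gata4 and Gata6 windows with a peak of H3K4me1, H3K27ac or H3K27me3 in all 3 libraries of at least 1 population (rows, with the centre in kb from the main start), by library (columns). Colour gives the percentile of the strongest peak's total signal within the library's own list, and grey marks no listed peak. The Gata4 H3K27ac region at -97.8 kb is at 98.0 or above in all 6 DP and Pdgfra+ libraries.

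The H3K4me1 peaks of the windows were divided by whether any library of the same population listed H3K27ac or H3K27me3 over them. In DP, 27 of the 33 H3K4me1 peaks at Gata4 touched H3K27ac, 3 touched H3K27me3 and 3 touched neither. In Pdgfra+, 10 of 22 touched H3K27ac, 0 touched H3K27me3 and 12 touched neither, and in Oct4+ 3 of 5 touched H3K27ac. At Gata6, 9 of 15 DP peaks, 2 of 7 Pdgfra+ peaks and 6 of 8 Oct4+ peaks touched H3K27ac. In these counts H3K4me1 without H3K27ac made up more of the Pdgfra+ than of the DP peaks. They are counts over peaks that share libraries and were not tested. At Gata4, Pdgfra+ replicate 3 alone held 15 of the 22 peaks and 8 of the 12 that touched neither mark. The share over all H3K4me1 peaks of each population is not given here, so the counts cannot be read as particular to these genes. The H3K27ac lists were of 4792 to 7128 peaks in Pdgfra+ and 3079 to 12244 in DP, and the part of list length in this was not tested.

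H3K27me3 at the main start in 3 of 3 Oct4+ libraries and in 0 of 6 others was found at 43 of 21911 coding genes (0.196%), Gata4 and Gata6 included. By comparison, 918 genes (4.19%) had H3K27me3 there in 3 of 3 Oct4+ libraries whatever the others held. With H3K27ac also listed in at least 5 of the 6 DP and Pdgfra+ libraries, 12 genes remained (0.0548%), among them Gata4, Gata6, Sox7, Col4a1, Col4a2, Lamb1, Creb3l1, Eva1a, Fam114a1, P3h2 and P4ha2. Sox7 encodes an endoderm transcription factor, Col4a1 and Col4a2 the chains of type IV collagen, Lamb1 a laminin chain, and P3h2 and P4ha2 prolyl hydroxylases that modify collagen. Main starts were added after the data were seen, so the shares at main starts are descriptions. The names outside the endoderm list were read after the values were known. At the annotated gene starts in place of the main starts, Gata6 had H3K27me3 in 2 of 3 Oct4+ libraries and Gata4, whose annotated start is the alternative one, in 1 of 3, patterns shared by 0.438% and 1.77% of coding genes. At annotated starts, 0.192% of coding genes had the pattern of 3 of 3 Oct4+ and 0 of 6 other libraries, and 0.0456% had it together with H3K27ac in at least 5 of 6. H3K27ac lay at the annotated Gata4 start in 0 of 3 Oct4+, 2 of 3 DP and 2 of 3 Pdgfra+ libraries, as at 0.151% of coding genes.

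The other GATA genes were read at their annotated starts. Gata1, Gata2, Gata3 and Gata5, of which Gata1 to Gata3 are best known from blood and trophoblast and Gata5 from endoderm and heart, had no H3K27ac peak at their start in any of the 9 libraries. By library, 10.7 to 44.3% of all coding genes had one, and the share with none in all 9 is not given here. H3K27me3 was listed at the Gata2 start in all 9 libraries, at that of Gata5 in 3 of 3 Oct4+, 3 of 3 DP and 1 of 3 Pdgfra+, and at that of Gata3 in 2, 3 and 1 of 3. It covered 4.88, 11.9 and 27% of the Gata2 window in Oct4+, 43.2, 47.0 and 34.2% in DP and 3.33, 22.5 and 47.1% in Pdgfra+. For the 4 genes the H3K27me3 difference between endoderm libraries and Oct4+ was positive in 4 of 4 with a median of 4.27 points, beside 1.38 over all genes tested, and none had an unadjusted p below 0.05. The H3K27me3 difference was -3.24 points at Gata6 and -0.356 at Gata4, where it was 1.24 without Oct4+ replicate 3 and 0.437 without any 1 of the Pdgfra+ libraries. Although no start peak was listed at Gata5, H3K27ac covered 18.2, 35 and 7.10% of its window in Oct4+, 20.4, 7.6 and 22.5% in DP and 12.1, 7.06 and 12.3% in Pdgfra+, a range that overlaps that of Gata4. The Gata5 and Gata2 values were chosen for display after they were seen, as were those of Fgfr2 and Fgf4.

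Among 6 inputs and cofactors, Fgfr2, an FGF receptor, had H3K27ac at its start in all 9 libraries. Fgf4, the ligand made by epiblast cells, had it in 1 of 3 Oct4+ libraries and in none of the others, and Fgfr1 in none. Zfpm2, which encodes the GATA cofactor FOG2, had H3K27me3 at its start in 2 of 3 Oct4+, 3 of 3 DP and 0 of 3 Pdgfra+ libraries. The shares of coding genes with these start patterns are not given here. For H3K27ac coverage 3 of the 6 were lower at an unadjusted p below 0.05 and none higher, beside 26.4% of all genes that were lower. The median difference was -5.21 points, and -3.75 over all genes tested.

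Of 16 other endoderm genes, 5 of the 14 that could be tested had less H3K27me3 coverage in the endoderm libraries at an unadjusted p below 0.05, beside 0.913% of all genes, and none had more at that level. Whatever the p, 7 of the 14 had a higher mean in the endoderm libraries and 7 a lower one. The median was -0.786 points against 1.38 over all genes tested. For H3K27ac coverage 9 of the 16 had a higher mean in the endoderm libraries and 7 a lower one. At an unadjusted p below 0.05, 2 were higher and 0 lower, beside 0.0966% of all genes higher and 26.4% lower. The median H3K27ac difference was 1.73 points, against -3.75 over all genes tested. Foxa2, an endoderm transcription factor, had H3K27ac at its annotated start in 0 of 3 Oct4+ and 6 of 6 other libraries, and Pdgfra, the receptor used for the sort, in 0 of 3, 2 of 3 and 3 of 3. Lamc1, a laminin chain, had it in 2 of 3 Oct4+, 1 of 3 DP and 0 of 3 Pdgfra+ libraries, and Dab2 and Sparc in none. H3K27me3 at the annotated start was listed in 3 of 3 Oct4+ and 0 of 6 other libraries for Sox7, Lamb1, Col4a1 and Col4a2. In contrast, all 8 pluripotency genes had less H3K27ac coverage in the endoderm libraries at an unadjusted p below 0.05, with a median of -9.30 points, beside 26.4% of all genes that were lower and a median of -3.75 over all genes tested. Nanog, the antagonist of GATA6, and Sox2 had H3K27ac at their start in 3 of 3 Oct4+ and 0 of 6 other libraries. Prdm14 had H3K27me3 in 3 of 3 DP libraries and in none of the others. The pattern of Sox7, Lamb1, Col4a1 and Col4a2 was found at 0.192% of coding genes, and the shares for the other start patterns are not given here. Oct4+ replicates 1 and 2 had the longest H3K27ac lists, and the part of list length in the Nanog and Sox2 patterns was not tested. The gene lists were chosen with results of these data known and are not independent evidence of direction.

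The genes whose covered shares, ranked within each library, followed those of Gata4 most closely over the 36 libraries were Rnaseh2c (Spearman rho 0.883), Kat5 (0.881), Col4a1 (0.871), Gm10570 (0.869) and Fabp3 (0.864), among 13916 genes. For Gata6 they included Vamp8 (0.796), Gdpd5 (0.789), Ablim1 (0.785) and Col4a2 (0.772), among 13921. Rnaseh2c and Kat5 both lie on chromosome 19, and Col4a1 and Col4a2 on chromosome 8. Overlap between the windows of the genes named was not excluded, so they need not be separate loci. These correlations are descriptions, since the 36 points share marks and list lengths.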

How the data were processed

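CUT&Tag libraries (3 per population and mark) were sequenced paired-end. Per the labels and the study's methods, the authors made coverage with BEDtools and called peaks for each library against IgG with SEACR in its stringent mode. The submitters' processing notes also name bcl2fastq 2.19.1, Bowtie2, SAMtools 1.12, deepTools, bedtools 2.26.0 and mm10. Which normalization SEACR ran with is not given in the sources used here. Values as deposited are signal (fragment coverage), summed over the bases of a peak and at its maximum, and they are not scaled to depth. Longer lists cover more of any window, which moves covered shares.

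Genes came from GENCODE M21. A start was taken as 1 kb upstream to 100 bp downstream. Covered shares of the gene plus 100 kb were compared for every coding gene with a peak in any library of the mark, by exact two-sided permutation tests over libraries with Benjamini-Hochberg adjustment. The alternatives were limma 3.58.1 on log2(bp + 1000), other flanks, peak filters, scalings and each library left out. Equal numbers of peaks with relative coverage, and main coding starts, were added after seeing the data. Scripts, tested on simulated data, used Python 3.11.15, NumPy 2.4.6, pandas 2.3.3, pysam 0.24.0, Matplotlib 3.10.9 and R 4.3.3.

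Regions are peaks merged over the 9 libraries of a mark, named when all 3 libraries of a population had one. Peaks within 1 region need not all overlap each other. Listed genes were named for an H3K27ac or H3K27me3 start peak in 3 of 3 libraries of 1 population and 0 of 3 of another. The members and lists were chosen with earlier results of these data known. Some items that these rules name are not reported here.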

Additional observations from a re-analysis of the deposited data

How the results depend on the processing

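No difference in covered share passed an adjusted p of 0.05 in the main test or in any alternative run. For Pdgfra+ against DP the exact test could not pass, since its smallest p is 0.10. For the 6 DP and Pdgfra+ libraries against Oct4+ its smallest p, 0.0119, passes the correction only where many genes reach it together. These failures therefore do not show that differences are absent. For the 6 DP and Pdgfra+ libraries against Oct4+, 161 of 175 alternative values kept their direction and 14 reversed. With the number of peaks in place of covered share, H3K27ac was at -1.5 peaks for Gata4 and -2.50 for Gata6. Gata4 H3K27me3 was 0.924 with the 50% of peaks of highest signal and 0.401 with a common minimum of signal, Gata4 H3K9me3 -0.535 with a 20 kb flank, Gata6 H3K9me3 -0.463 with a 50 kb flank, and Gata6 H3K4me1 -0.01 by limma on the log2 scale. With 1 library left out, Gata4 ranged from -0.656 to 10.8 points for H3K27ac, -1.97 to 1.24 for H3K27me3, 9.12 to 16.2 for H3K4me1 and 0.314 to 0.751 for H3K9me3, and Gata6 from -1.68 to 3.29, -4.26 to -2.28, 0.779 to 3.81 and 0.720 to 1.43. Gata4 H3K27me3 was 1.24 without Oct4+ replicate 3 and 0.437 without any 1 of the Pdgfra+ libraries. For Pdgfra+ against DP, 123 of 142 kept their direction and 19 reversed. Gata4 H3K4me1 was 3.72 by relative coverage and 0.0237 as a share of listed signal. Gata4 H3K27ac was 3.22 with a common minimum, 4.35 by relative coverage, 0.0382 as a share of signal, 1.40 with equal numbers and relative coverage, and 0.06 by limma, and Gata6 H3K27ac 0.652 with a common minimum. H3K9me3 was -0.0338 by relative coverage and -0.000427 as a share of signal for Gata4, and -0.333 peaks for Gata6. With 1 library left out, Gata4 ranged from -7.55 to 1.7 for H3K27ac, -9.07 to -5.89 for H3K27me3, -20.7 to -5.49 for H3K4me1 and -0.111 to 0.892 for H3K9me3, and Gata6 from -4.72 to -0.533, -1.41 to -0.941, -10.3 to -3.23 and -0.596 to 0.745. The cause of these reversals was not tested. Named regions fell in number with 50% overlap, at Gata4 from 4 to 1 (H3K4me1), 6 to 1 (H3K27ac) and 2 to 0 (H3K27me3) and at Gata6 from 2 to 1, 2 to 1 and 1 to 0. With equal numbers of peaks they were 2, 2 and 0 at Gata4, and at Gata6 0 (H3K4me1), 1 (H3K27ac) and 0 (H3K9me3). With at least 2 of 3 libraries they were 9 (H3K4me1), 11 (H3K27ac) and 1 (H3K9me3) at Gata4 and 6, 5 and 2 at Gata6. At the annotated start, equal numbers of peaks left 0 libraries with Gata4 H3K27me3 and 0 with Gata6 H3K4me1, from 1 each. A fit with the replicate number as a block gave the same differences, with an exact permutation p of 0.0370 for Gata6 H3K27me3, the smallest it allows, and 0.259 for Gata4 H3K4me1, and changed no adjusted call. Same-numbered libraries deviated together (correlation over 0.1) in 4, 1, 3 and 5 of 9 pairs for H3K4me1, H3K27ac, H3K27me3 and H3K9me3. All 3 pairs of populations did so for H3K4me1 replicate 1 (0.552 to 0.772) and H3K9me3 replicate 3 (0.180 to 0.257). List length also moves covered shares, so these correlations cannot decide whether the numbers pair the libraries. For H3K27me3 the 3 pairs of Oct4+ with Pdgfra+ were at 0.454 to 0.703 and the 6 pairs with DP at -0.583 to 0.00929. Some alternatives left 0% in every library compared and gave no value. Depth is unknown and limits what a missing peak shows.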
